A study of Arabidopsis thaliana with 24 samples.

Results

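Loss of the histone chaperone NASP alone was examined in 12-day-old Arabidopsis thaliana seedlings, by comparing the 3 nasp libraries with the 3 wild-type libraries of the same age. These are 6 of the 24 RNA sequencing libraries of a study of mutants in NASP, HAG2, MSI2 and MSI3, and they were chosen by genotype and age, not by any measured value. The wild type is the accession Col-0 and the mutant is labelled nasp-/-, with no other allele and no treatment. The sources used here give neither the nature of the nasp allele nor its number of independent lines. Whole seedlings came from Murashige and Skoog plates kept under long days, and TRIzol was used for total RNA. The other 12-day genotypes also have 3 libraries each and lent their spread to the statistical fit: hag2-/- nasp-/- (hag2 nasp), then msi2-/- msi3-/- nasp-/- (msi2 msi3 nasp), and also a combination that keeps NASP, hag2-/- msi2-/- msi3-/- (hag2 msi2 msi3), which was used as a second comparison. Nothing says whether the replicates were grown or harvested apart, so p-values here measure only the spread between these samples, which may be technical. The hour of harvest is not given either, so a shift of the daily phase and an effect of genotype on a clock gene cannot be told apart.

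Histone chaperones are proteins that hold histones before and after they are part of chromatin. NASP is known to bind H3 and H3-H4 in the soluble pool and to guard them from degradation in mammalian cells, and its Arabidopsis counterpart binds H3 and H4 and takes part in the deposition of H3 variants. HAG2, MSI2 and MSI3 encode the acetyltransferase and histone-binding subunits of a complex that acetylates new H4 and that NASP joins.

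Values are the authors' normalized gene-level read values, called value below, on one scale for all libraries. They were compared as log2(value + 1), and every change is nasp minus wild type on that scale with the standard error (SE) of the fit. Group values are means ± SD (n = 3). Values summed to 20.1 to 20.2 M in the wild-type libraries and to 20.4 to 21 M in the nasp libraries. How many reads lie behind each value is not known, so no counting interval is given. Each nasp library lists the same number of genes at 0 (7997), and how the processing before deposit bears on the spread between replicates, and so on the p-values, is not known. NASP itself, at chr4:17512254-17514723 (TAIR10.1, + strand), had values of 539, 478 and 519 in the wild type and 138, 123 and 199 in nasp. All nasp libraries were below all wild-type libraries, and the log2 change was -1.76 ± 0.14 (adjusted p = 5.1e-07). The 3 nearest tested genes on each side did not pass the test, nor did any of the 30 tested genes within 50 kb. The other genes of the complex did not pass: the change was -0.23 ± 0.09 for MSI2 (adjusted p = 0.202), -0.32 ± 0.12 for MSI3 (adjusted p = 0.201) and 0.01 ± 0.17 for HAG2. MSI1, a gene related to MSI2 and MSI3, did not pass either (0.02 ± 0.07). Of these 5 genes with NASP, 3 had an unadjusted p below 0.05. In an alternative fit with voom weights 2 of the 5 fell, against NASP alone here.

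Of 24305 genes tested, 945 passed an adjusted p of 0.05 in limma (Benjamini-Hochberg over all genes tested), which is 3.89%. This is the background against which the counts below are read. Of all genes tested 2.5% rose and 1.39% fell. Most changes were small. The median absolute log2 change of the called genes was 0.45. Of the called genes, 326 of the 608 risen and 208 of the 337 fallen genes changed by less than 0.5, and 8 and 6 genes changed by 2 or more. The spread between replicates sets which changes could pass. The median SD of the log2 values was 0.58 in either group for genes with a mean under 10, 0.22 for means of 10 to 100, 0.09 for 100 to 1000 and 0.06 for 1000 to 10000. The smallest change that passed was 0.94, 0.48, 0.19 and 0.19 in those classes, and 0.29 for means over 10000. In the same classes of level, 0.652% of the genes with means under 10 was called, 8.07% of genes with means of 1000 to under 10000, and 11.8% of the genes at 10000 or more. Protein-coding genes were called in 4.07% of cases and long noncoding RNAs in 0.868%, and the 5 chromosomes ranged from 3.68% to 4.4%. Of the called genes, 409 kept their call and direction without any 1 library, and 291 did so in every one of 16 alternative fits. Without nasp replicate 2 the count was 519 and without wild type replicate 2 it was 611. In a fit of the 6 libraries alone it was 535 (407 rose, 128 fell). The balance of directions depended on the weighting. Of the called genes 64.3% rose here, 76.1% in the fit of the 6 libraries alone and 47.9% with voom weights (545 rose, 593 fell), which also moved the median change of all genes by -0.045.

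**Figure D1:**
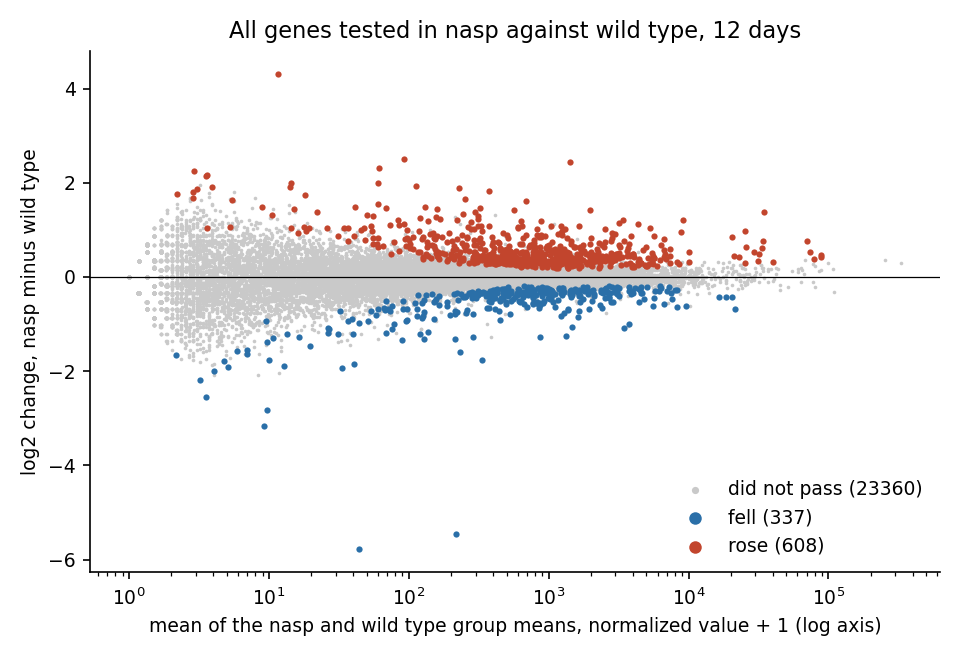
Log2 change (nasp minus wild type, vertical axis) against the mean value of the 6 libraries plus 1 (horizontal axis, log scale), 1 point per tested gene; called genes are coloured by direction. The smallest change that passed was 0.94 for means under 10, 0.19 for means of 100 to 10000 and 0.29 for means over 10000.

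The 52 gene lists used to describe the change by process hold 866 tested genes, and 38 of the lists have at least 1 called gene. The lists in which the largest shares were called were the linker histones (3 of 3 tested), the morning clock (13 of 14), H4 (7 of 8), H2B (8 of 10), H3 (9 of 12), the light-harvesting antenna (12 of 19), chlorophyll synthesis (9 of 17) and the evening clock (6 of 12). The lists cover 147 of the called genes and 798 called genes belong to none of them. Members and lists were chosen with earlier results of these data known. These shares thus describe the lists and are no test against the 3.89% called over all genes tested.

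**Figure D2:**
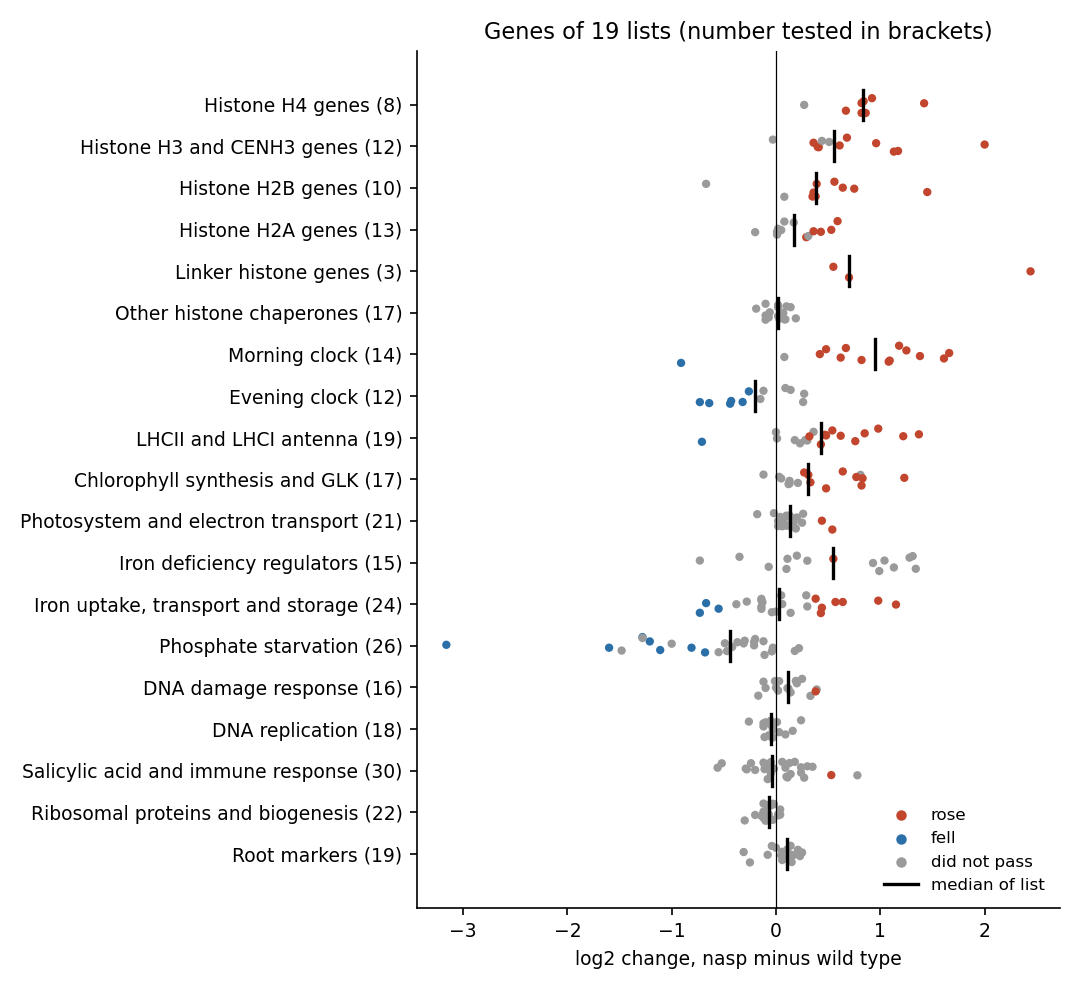
Log2 change (nasp minus wild type) of each tested member of 19 gene lists, 1 point per gene, with called genes coloured by direction and each list's median as a bar. The H4 and morning clock points lie mainly right of zero, with medians of 0.83 and 0.95, while the phosphate starvation points lie mainly left of it, with a median of -0.45.

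Histone genes rose together in nasp. In the H3 list 9 of 12 tested genes rose and none fell (median log2 change 0.56), and in the H4 list 7 of 8 rose (median 0.83). In the H2B list 8 of 10 rose (median 0.38) and in the H2A list 5 of 13 (median 0.17). All 3 linker histone genes rose (median 0.70), while the median over all genes tested was 0.00. Fewer cells of a type and less RNA per cell cannot be told apart in these whole-seedling samples, for this and every other result. The copies of each core histone are nearly identical and how reads shared between copies were counted is not given, so values of single copies are less certain than the sum. The summed H3 values were 18090 to 18850 in the wild-type libraries and 31060 to 31330 in the nasp libraries, and the summed H4 values 4818 to 5148 and 9201 to 9797. Neither sum overlapped between the groups.

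Replication-dependent and replacement H3 genes both rose. Among the genes of replication-type H3.1, AT3G27360 had values of 152, 170 and 195 in the wild type and 412, 354 and 394 in nasp, a log2 change of 1.17 ± 0.11 (adjusted p = 9.94e-06). AT1G09200, another H3.1 gene, had 1644, 1882 and 2013 in the wild type and 3033, 2797 and 3017 in nasp, a change of 0.68 ± 0.09. In both genes all nasp libraries lay above all wild-type libraries. Genes of the replacement variant H3.3, which is also deposited outside S phase, rose as well, and 2 are given here. AT4G40040 had values of 6447, 5695 and 5948 in the wild type and 11707, 11971 and 11514 in nasp, a change of 0.96 ± 0.07 (adjusted p = 2.96e-07). AT4G40030 had 5112, 4857 and 4564 in the wild type and 6125, 6552 and 6509 in nasp, a change of 0.40 ± 0.06. The groups did not overlap in either gene, but the change was larger in the former. HTR12, the gene of the centromeric H3 variant, did not pass, with 76.9 ± 7.58 in the wild type and 75.3 ± 4.12 in nasp and a change of -0.03 ± 0.20 (adjusted p = 0.983). Of the H3 calls, that of AT5G10400 was lost in at least 1 fit without a library (an adjusted p of 0.0598 to 0.143 without, in turn, nasp replicates 1, 2 and 3 and wild type replicates 2 and 3). That of AT1G13370 was lost in the fit of the 6 libraries alone.

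In the H4 list the called genes ranged in change from 0.67 ± 0.09 for AT5G59690 to 1.42 ± 0.06 for AT3G53730. AT5G59690 had 1381, 1279 and 1403 in the wild type and 2211, 2091 and 2145 in nasp. All 7 calls held in every alternative. The eighth, AT1G07660, had 156 ± 19.9 in the wild type and 187 ± 3.64 in nasp and did not pass (adjusted p = 0.14). Of the linker histones, HIS1-3, a drought-inducible H1 variant, had values of 398, 539 and 395 in the wild type and 2255, 2521 and 2380 in nasp. All nasp libraries lay far above all wild-type libraries, and the change of 2.44 ± 0.10 (adjusted p = 1.46e-10) was larger than that of the main variants AT1G06760 (0.55 ± 0.06) and AT2G30620 (0.70 ± 0.06). The H2B gene AT3G53650 had 82.6, 75.9 and 93.2 in the wild type and 239, 223 and 227 in nasp, the largest change of the H2A and H2B genes (1.45 ± 0.11), with no overlap. The 5 H2A calls fell to 3 without nasp replicate 2 and to 2 in the fit of the 6 libraries alone. The 8 H2B calls fell to 5 without nasp replicate 1 or 2 and to 4 in a fit with no trend.

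Promoters of 3 histone genes are shown because they carry the octamer CGCGGATC, a histone promoter element known from plant histone genes. Letters are the 250 bases before the annotated gene start, RefSeq TAIR10.1, 5′ to 3′ on the gene's strand, and capitals mark the octamer on either strand.
AT1G09200, chr1:2972335-2972584, - strand: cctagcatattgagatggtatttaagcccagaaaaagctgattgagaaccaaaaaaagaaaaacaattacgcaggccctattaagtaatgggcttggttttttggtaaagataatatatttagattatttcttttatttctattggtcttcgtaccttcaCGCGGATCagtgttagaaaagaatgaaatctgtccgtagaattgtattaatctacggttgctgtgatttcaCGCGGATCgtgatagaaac
AT5G65360, chr5:26120582-26120831, - strand: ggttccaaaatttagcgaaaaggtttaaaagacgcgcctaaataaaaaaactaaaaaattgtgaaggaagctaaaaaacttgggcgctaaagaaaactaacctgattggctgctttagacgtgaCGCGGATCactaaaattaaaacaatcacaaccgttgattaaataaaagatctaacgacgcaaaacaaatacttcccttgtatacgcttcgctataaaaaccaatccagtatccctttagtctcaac
AT5G59690, chr5:24051224-24051473, + strand: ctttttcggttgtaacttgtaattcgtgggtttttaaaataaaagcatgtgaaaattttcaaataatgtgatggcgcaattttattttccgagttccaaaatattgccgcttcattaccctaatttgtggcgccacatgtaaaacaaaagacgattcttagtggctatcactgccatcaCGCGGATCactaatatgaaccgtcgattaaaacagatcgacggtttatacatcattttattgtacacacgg
The octamer was present in 35 of the 24304 promoters read (0.144%) and in 20.9% of the core histone promoters. By list it was in 4 of 12 H3, 2 of 8 H4 and 3 of 13 H2A promoters. It was in 0 of 10 H2B promoters, although 8 of the 10 H2B genes rose. Of the 35 genes that hold it, 10 rose (28.6%) and none fell, and the 3 genes shown are among these 10, so the count is not independent of the histone lists. AT5G65360, an H3.1 gene whose promoter is shown, had 1665, 1636 and 1750 in the wild type and 2170, 2221 and 2318 in nasp and a change of 0.41 ± 0.06.

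**Figure D3:**
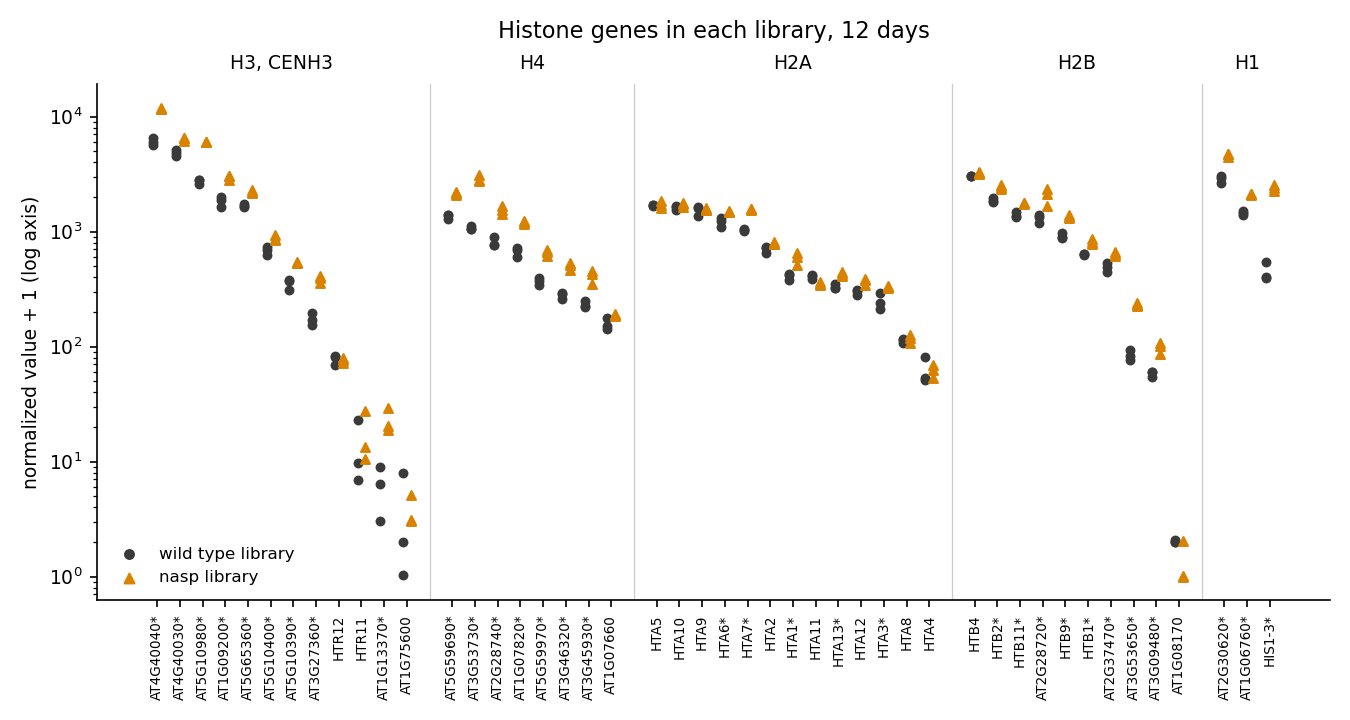
Value in each of the 3 wild-type and 3 nasp libraries (vertical axis, normalized read value on a log scale) for histone genes, 1 point per library, with called genes starred. For HIS1-3 and AT3G53730 every nasp library lies well above every wild-type library; heights of different genes are not to be compared, since values are not per length.

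Genes that act on histones gave few calls. In lists this short, no call or 1 call cannot be told apart from the 3.89% called over all genes tested. None of 17 other histone chaperone genes passed in either direction, and their changes lay between -0.19 and 0.19; their summed values were 17100 to 17330 in the wild type and 16740 to 17310 in nasp. None of 10 acetyltransferase, 14 Polycomb group, 20 DNA and H3K9 methylation or 18 DNA replication genes passed in limma. At an unadjusted p below 0.05 the counts in these 5 lists were 1, 4, 2, 3 and 1, and with voom weights 1 chaperone gene and 1 methylation gene passed, both lower in nasp. After quantile normalization 1 chaperone gene fell, and in the fit without nasp replicate 1 a single replication gene rose. Of 15 deacetylase genes HDA18 fell, from values of 12.1, 11.8 and 14.9 to 6.08, 3.16 and 4.17, a change of -1.38 ± 0.27 (adjusted p = 0.00616), and that call ended in the fit of the 6 libraries alone. Chromatin-associated HMG genes, a family chosen after its values were seen, gave 4 risen of 17 tested and none fallen: HMGA (0.52 ± 0.06), HON5 (0.49 ± 0.06), HMGB2 (0.49 ± 0.06) and 3xHMG-box2 (0.35 ± 0.07). Of 16 tested DNA damage genes CYCB1;1, a mitotic cyclin, rose by 0.38 ± 0.10. Its call was lost in most fits without a library (an adjusted p of 0.0724 to 0.132 without, in turn, nasp replicates 1, 2 and 3 and wild type replicates 1 and 2). Of 17 mitotic genes KNOLLE, a syntaxin of cytokinesis, rose by 0.36 ± 0.10. Its call was lost too (an adjusted p of 0.0683 to 0.167 without, in turn, nasp replicates 1, 2 and 3 and wild type replicates 1, 2 and 3).

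The circadian clock of Arabidopsis is a loop in which morning-expressed MYB factors such as CCA1, LHY and the RVE proteins and evening-expressed factors such as TOC1 and the ELF3-ELF4-LUX complex set each other's level through the day. PRR9 and PRR7 are expressed in between, and LNK proteins act as coactivators with RVE8. In nasp, 12 of 14 morning genes rose and 1 fell (median 0.95), and of 12 evening genes none rose and 6 fell (median -0.20). CCA1 had values of 216, 451 and 387 in the wild type and 1036, 1120 and 927 in nasp, a change of 1.61 ± 0.19 (adjusted p = 4.07e-05). LNK3 had 81.7, 136 and 155 in the wild type and 412, 384 and 352 in nasp, a change of 1.66 ± 0.20. Wild type replicate 1 was the lowest library for both genes, and every nasp library was above every wild-type library. PRR9 had 74.6, 87.4 and 88.2 in the wild type and 180, 222 and 170 in nasp, a change of 1.18 ± 0.18 (adjusted p = 0.000597). PRR7 rose by 0.62 ± 0.09, LNK2 by 1.08 ± 0.09 and RVE4 by 0.48 ± 0.08. The calls of these 6 genes held in every alternative. The exception among the morning genes was RVE2, a MYB factor close to RVE1, with values of 719, 514 and 527 in the wild type and 256, 295 and 387 in nasp. It fell by 0.91 ± 0.14 (adjusted p = 0.0005), a call that ended in the fit of the 6 libraries alone.

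On the evening side, TOC1, a repressor of CCA1 and LHY, had values of 3411, 3023 and 2915 in the wild type and 2351, 2236 and 2304 in nasp, a change of -0.44 ± 0.07 (adjusted p = 0.000609). PRR3, a TOC1 relative that stabilizes TOC1 protein, had 1505, 1268 and 1247 in the wild type and 785, 867 and 928 in nasp, a change of -0.64 ± 0.09. BOA, a relative of LUX, had 316, 235 and 250 in the wild type and 145, 140 and 197 in nasp, a change of -0.73 ± 0.13. The groups did not overlap in any of the 3, and the falls were smaller than the rises of CCA1 and LNK3. The other evening genes that fell were ELF3 (-0.26 ± 0.06), ELF4 (-0.43 ± 0.10) and FKF1 (-0.32 ± 0.08). Of these 6 calls, those of TOC1 and PRR3 alone held in every alternative. The evening falls numbered 3 in the fits without nasp replicate 1, nasp replicate 2, wild type replicate 1 or wild type replicate 2, and BOA's call ended in the fit of the 6 libraries alone.

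Promoters of clock genes that changed, and of NYC1, are shown with a motif marked in capitals, in the same 250-base window as above. The evening element AAATATCT is the site that CCA1 and its relatives are known to bind, and it is marked in the promoters of TOC1, BOA and NYC1, which all fell. The G-box CACGTG, a site of bHLH and bZIP factors, is marked in those of CCA1, LNK3 and PRR9, which all rose. The promoter of BOA also holds a G-box, which is left in lower case because only the evening element is marked there.
TOC1, chr5:24674713-24674962, + strand: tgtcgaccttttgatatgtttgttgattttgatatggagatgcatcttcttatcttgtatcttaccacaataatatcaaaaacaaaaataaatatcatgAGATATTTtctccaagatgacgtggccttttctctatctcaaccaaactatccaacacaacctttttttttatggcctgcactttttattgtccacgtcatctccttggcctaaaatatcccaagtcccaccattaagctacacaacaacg
BOA, chr5:24003638-24003887, + strand: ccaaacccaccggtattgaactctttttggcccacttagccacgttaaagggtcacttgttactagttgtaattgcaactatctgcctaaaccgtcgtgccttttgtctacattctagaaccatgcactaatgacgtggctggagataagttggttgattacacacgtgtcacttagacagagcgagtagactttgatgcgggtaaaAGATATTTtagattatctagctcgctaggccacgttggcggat
NYC1, chr4:7687007-7687256, - strand: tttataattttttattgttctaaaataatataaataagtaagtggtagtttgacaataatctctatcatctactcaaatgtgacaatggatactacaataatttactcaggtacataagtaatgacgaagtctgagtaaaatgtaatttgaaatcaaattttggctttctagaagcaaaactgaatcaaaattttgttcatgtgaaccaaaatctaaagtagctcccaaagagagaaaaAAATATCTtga
CCA1, chr2:19245341-19245590, + strand: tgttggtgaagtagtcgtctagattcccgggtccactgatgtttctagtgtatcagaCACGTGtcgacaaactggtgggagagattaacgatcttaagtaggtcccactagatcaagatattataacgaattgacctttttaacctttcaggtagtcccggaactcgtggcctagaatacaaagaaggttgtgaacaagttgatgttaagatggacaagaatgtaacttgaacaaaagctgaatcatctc
LNK3, chr3:3923265-3923514, + strand: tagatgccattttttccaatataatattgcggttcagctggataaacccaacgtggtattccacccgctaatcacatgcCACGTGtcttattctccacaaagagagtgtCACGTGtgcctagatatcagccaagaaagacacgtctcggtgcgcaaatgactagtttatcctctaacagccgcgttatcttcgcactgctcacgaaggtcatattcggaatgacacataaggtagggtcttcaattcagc
PRR9, chr2:19232357-19232606, + strand: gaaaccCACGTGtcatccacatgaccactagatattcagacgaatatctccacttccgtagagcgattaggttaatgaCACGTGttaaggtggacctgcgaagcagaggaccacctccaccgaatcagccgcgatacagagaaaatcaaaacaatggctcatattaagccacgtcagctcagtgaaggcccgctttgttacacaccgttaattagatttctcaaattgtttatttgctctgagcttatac
The evening element, searched on both strands, was present in 4.85% of all promoters, in 5.76% of those of risen genes, in 9.5% of those of fallen genes and in 50.0% of those of the evening list (6 of 12). The G-box was present in 6.92% of all promoters, 12.5% of those of risen genes, 8.31% of those of fallen genes and 50.0% of those of the morning list (7 of 14). It was also present in 2 of 12 evening promoters, and the evening element in 1 of 14 morning promoters. A match of letters is a description of the window and not a site or a cause.

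**Figure D4:**
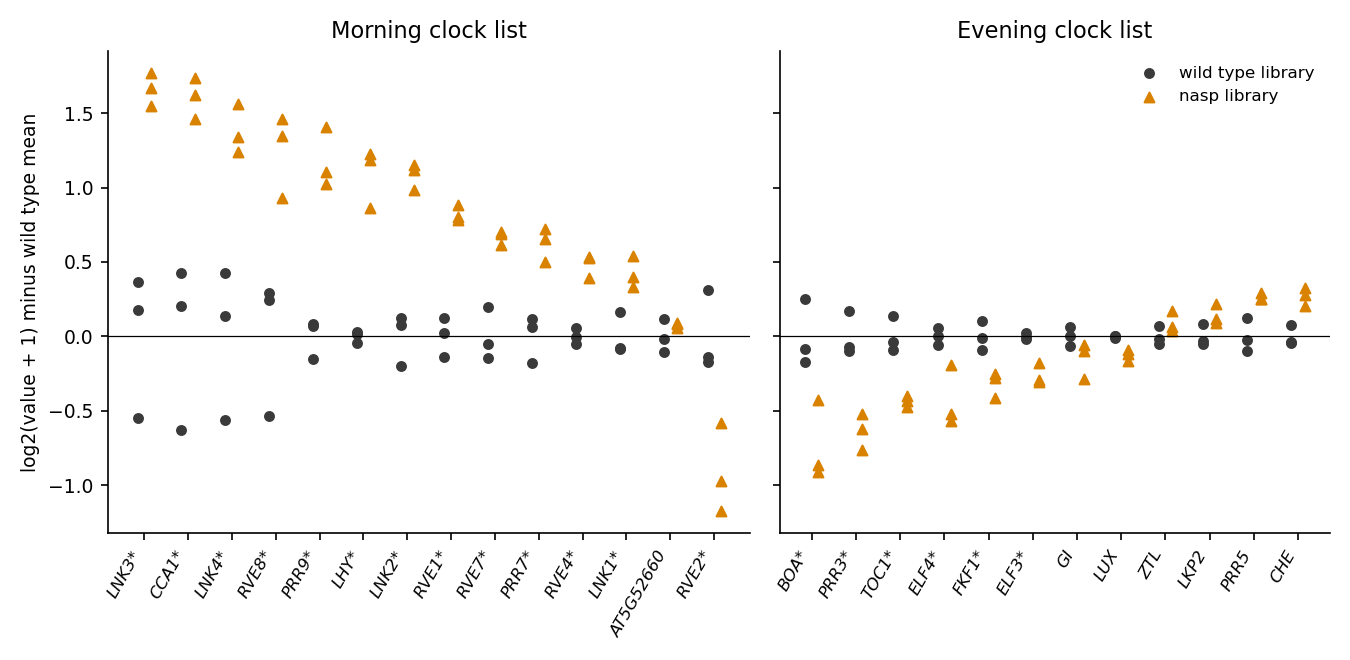
Log2(value + 1) of each library minus the wild-type mean (vertical axis) for the morning and evening clock genes, with wild-type and nasp libraries as separate points and called genes starred. The nasp points of CCA1 and LNK3 lie highest, with changes of 1.61 and 1.66, RVE2 is the morning gene below zero, and TOC1, PRR3 and BOA lie below zero among the evening genes.

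Clock output and light signalling genes gave a mixed picture. Of 16 tested output genes 5 rose and 1 fell. COL2, a CONSTANS-like zinc finger gene, had 112, 149 and 139 in the wild type and 310, 313 and 302 in nasp, a change of 1.21 ± 0.15. The nasp libraries differed little from each other and lay above the wild type. BBX18 rose by 0.84 ± 0.10 and BBX19 by 0.71 ± 0.17. The Dof factor genes CDF1 and CDF3, known repressors of CONSTANS, rose by 0.62 ± 0.14 and 0.58 ± 0.09, while COL9 fell by 0.83 ± 0.11. The call of COL9 ended in the fit of the 6 libraries alone, whereas those of COL2, BBX18 and CDF3 held in every alternative; the rises numbered 3 without nasp replicate 2 or wild type replicate 3. B-box genes as a family, chosen after its values were seen, had 10 risen and 3 fallen of 29 tested (median 0.22), with 1 fallen in the fit of the 6 libraries alone. Of 21 light signalling genes PIF5, a bHLH factor of shade and dark growth, rose by 0.60 ± 0.08 (1722, 1733 and 1799 in the wild type and 2588, 2843 and 2560 in nasp). ATHB2, a shade-induced homeobox gene, rose by 0.46 ± 0.11, and its call was lost without some libraries (an adjusted p of 0.0706 to 0.127 without, in turn, nasp replicates 1 and 3 and wild type replicates 1 and 3). Outside the lists, the phototropin pathway gene RPT2 rose by 0.67 ± 0.07 (2363, 2489 and 2479 in the wild type and 3926, 3890 and 3840 in nasp). JAC1, needed for chloroplast movement, rose by 1.09 ± 0.12 (320, 491 and 435 in the wild type and 858, 871 and 883 in nasp). In both genes the nasp libraries lay within a narrow range above the wild type.

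Genes of light harvesting and chlorophyll synthesis rose, whereas few of those of the reaction centres and carbon fixation passed. The light-harvesting complexes bind chlorophyll a and b around the photosystems and are encoded by the LHCB genes for photosystem II and the LHCA genes for photosystem I. Of 19 tested antenna genes 11 rose and 1 fell (median 0.43), against 2 of 21 photosystem and electron transport genes (median 0.13) and 1 of 17 Rubisco and Calvin cycle genes (median 0.10; 3 rose without nasp replicate 1). LHCB1.1 had values of 15525, 20638 and 21999 in the wild type and 45484, 53827 and 49812 in nasp, a change of 1.37 ± 0.11 (adjusted p = 5.89e-07). LHCB2.3 had 4272, 6487 and 5955 in the wild type and 11759, 13707 and 12948 in nasp, a change of 1.22 ± 0.16. Wild type replicate 1 was the lowest library in both, and every nasp library lay well above every wild-type library. The minor antenna gene LHCB4.2 had 25427, 28040 and 27131 in the wild type and 34549, 39484 and 38126 in nasp, a smaller change of 0.48 ± 0.08. LHCB4.3, another minor antenna gene, fell instead, with 279, 373 and 316 in the wild type and 180, 162 and 257 in nasp, a change of -0.71 ± 0.15. That call was lost without some libraries (an adjusted p of 0.0585 to 0.0904 without, in turn, nasp replicates 1 and 2 and wild type replicate 2). The copies of LHCB1 and LHCB2 are similar in sequence, so single copies are less certain than their sum. The summed antenna values were 887600 to 942700 in the wild type and 1165000 to 1331000 in nasp, with no overlap. The antenna rises numbered 7 in the fit of the 6 libraries alone, 7 after quantile normalization and 14 with voom weights.

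Chlorophyll synthesis runs from glutamyl-tRNA reductase through magnesium chelatase and the cyclase to protochlorophyllide reduction, and chlorophyll a oxygenase makes chlorophyll b. Of 17 genes tested, 9 rose and none fell (median 0.31). CAO, chlorophyll a oxygenase, had 1884, 2187 and 2069 in the wild type and 3518, 3793 and 3505 in nasp, a change of 0.82 ± 0.07 (adjusted p = 1.09e-06). CRD1, the cyclase subunit, had 23083, 25934 and 26261 in the wild type and 40362, 45017 and 42664 in nasp, a change of 0.77 ± 0.07. GLK2, a transcription factor that activates antenna and chlorophyll genes, had 1362, 1510 and 1492 in the wild type and 2548, 2608 and 2607 in nasp, a change of 0.83 ± 0.08 (adjusted p = 4.76e-06). In these 3 genes the nasp libraries lay well above the wild type with a spread far below the gap. GUN5, the H subunit of magnesium chelatase, rose by 0.64 ± 0.09 and PORA, a protochlorophyllide reductase, by 1.23 ± 0.24 (220, 221 and 132 in the wild type and 430, 443 and 435 in nasp). HEMA1 (0.48 ± 0.10), CHLI1 (0.31 ± 0.07), CHLM (0.27 ± 0.06) and PORB (0.33 ± 0.07) rose less. The count was 5 without nasp replicate 2 and in the fit of the 6 libraries alone. In the opposite direction, NYC1, the chlorophyll b reductase that starts chlorophyll b breakdown, had values of 5625, 4846 and 4634 in the wild type and 2400, 2541 and 2560 in nasp. All nasp libraries lay far below all wild-type libraries, and the nasp mean was 49.7% of that of the wild type (adjusted p = 2.96e-07).

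Plastid isoprenoid genes were examined as a family after their values were seen, and 6 of 22 rose and none fell, all with calls that held in every alternative. CLA1, the first enzyme of the plastid isoprenoid pathway, rose by 0.53 ± 0.06 (7848, 8301 and 8425 in the wild type and 11376, 12762 and 11380 in nasp) and HDR, its last enzyme, by 0.45 ± 0.06. ABA1, zeaxanthin epoxidase, had 4407, 5445 and 4682 in the wild type and 8081, 9224 and 8138 in nasp, a change of 0.81 ± 0.08. NCED4, a carotenoid cleavage enzyme, rose by 0.86 ± 0.12 and ABA4, which takes part in neoxanthin synthesis, by 0.42 ± 0.06. BETA-OHASE 2, a carotene hydroxylase, had 22.2, 30.9 and 37.7 in the wild type and 87.3, 93.8 and 86.4 in nasp, a change of 1.56 ± 0.30. Among the photosystem genes the copper protein plastocyanin PETE1 rose by 0.44 ± 0.06 (3067, 3116 and 2990 in the wild type and 3832, 4286 and 4332 in nasp). ATH13, an ABC1-like protein gene outside the lists, had 2901, 3867 and 3656 in the wild type and 6795, 7489 and 7006 in nasp, a change of 1.04 ± 0.10.

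Genes of iron handling changed in both directions. FRO6 and FRO7 are ferric reductases of the leaf plasma membrane and the chloroplast and are neighbours on chromosome 5. FRO6 had values of 1985, 2084 and 1868 in the wild type and 4360, 4427 and 4416 in nasp, a change of 1.15 ± 0.13 (adjusted p = 3.68e-05). FRO7 had 801, 892 and 812 in the wild type and 1571, 1648 and 1712 in nasp, a change of 0.98 ± 0.10. The nasp libraries differed little from each other in either gene and all were above the wild type. NAS4, a nicotianamine synthase, rose by 0.57 ± 0.09 and NRAMP4, a vacuolar iron exporter, by 0.38 ± 0.06. Of the 4 ferritin genes, whose products store iron in plastids, FER1, FER3 and FER4 fell, while FER2, at 25.6 ± 3.68 in the wild type and 23.4 ± 5.33 in nasp, did not pass. FER1 had 2030, 2346 and 1837 in the wild type and 1326, 1179 and 1215 in nasp, a change of -0.73 ± 0.14. FER3 had 1088, 1028 and 964 in the wild type and 679, 715 and 713 in nasp, a change of -0.55 ± 0.08. FER4 had 510, 581 and 422 in the wild type and 317, 341 and 288 in nasp, a change of -0.67 ± 0.12. No nasp library reached the lowest wild-type library in any of the 3, and FER4's call ended in the fit of the 6 libraries alone. In all, 7 of 24 uptake, transport and storage genes rose and 3 fell, and the rises fell to 4 in a fit with no trend.

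The regulators of iron deficiency showed larger means but few calls. BHLH100, a factor induced by iron deficiency, had values of 236, 248 and 221 in the wild type and 610, 514 and 632 in nasp. Its change of 1.31 ± 0.50 did not pass (adjusted p = 0.192), although the groups did not overlap. AT1G47395 had 129, 139 and 133 in the wild type and 346, 274 and 415 in nasp, again without overlap and without passing (1.34 ± 0.46, adjusted p = 0.132). In the combined mutants these genes were near 0 with a large relative spread: BHLH100 was at 4.6 ± 4.79 in hag2 nasp. In msi2 msi3 nasp it was at 1.63 ± 2.08. These libraries enter the shared estimate of spread. In the fit of the 6 libraries alone 8 of the 15 regulators rose, and with voom weights 8 did. Here 1 rose: BTS, an E3 ligase that limits the iron response (0.55 ± 0.12), whose call was lost without some libraries (an adjusted p of 0.0511 to 0.063 without, in turn, nasp replicates 1 and 3 and wild type replicate 2). The median change over the list was 0.55.

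Phosphate starvation genes were lower in nasp, but the wild-type libraries spread widely. Plants short of phosphate switch on phosphatases, transporters and lipid-remodelling enzymes through PHR1, which binds the P1BS element. Of 26 genes tested 7 fell and none rose (median -0.45), and 24 of 26 had a negative change. PS2, a phosphatase, had values of 683, 1497 and 1587 in the wild type and 466, 543 and 447 in nasp, a change of -1.28 ± 0.24 (adjusted p = 0.00337). Wild type replicate 1 lay below the other wild-type libraries and closer to nasp, and the groups did not overlap. PAP5, a purple acid phosphatase, had 6.07, 27.3 and 13.9 in the wild type and 1.01, 1.04 and 0.00665 in nasp, a change of -3.16 ± 0.63 (adjusted p = 0.00598). The median SD of the log2 values over the list was 0.40 in the wild type and 0.14 in nasp. Without wild type replicate 1 the count was 13. Without nasp replicate 1, nasp replicate 2, wild type replicate 2 or wild type replicate 3 it was 2, and without nasp replicate 3 it was 3. None of the 7 calls held in every alternative. In hag2 msi2 msi3 PS2 was at 680 ± 204, nearer to nasp than to the wild type mean, and of the list none was higher and 1 was lower in nasp than in hag2 msi2 msi3.

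The promoters of PS2 and PAP5 are shown with the P1BS element GNATATNC in capitals.
PS2, chr1:27466349-27466598, - strand: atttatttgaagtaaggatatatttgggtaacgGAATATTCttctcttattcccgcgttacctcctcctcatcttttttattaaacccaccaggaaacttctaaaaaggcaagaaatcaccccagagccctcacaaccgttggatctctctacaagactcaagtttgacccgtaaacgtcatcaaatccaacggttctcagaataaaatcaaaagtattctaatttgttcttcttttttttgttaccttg
PAP5, chr1:19716152-19716401, + strand: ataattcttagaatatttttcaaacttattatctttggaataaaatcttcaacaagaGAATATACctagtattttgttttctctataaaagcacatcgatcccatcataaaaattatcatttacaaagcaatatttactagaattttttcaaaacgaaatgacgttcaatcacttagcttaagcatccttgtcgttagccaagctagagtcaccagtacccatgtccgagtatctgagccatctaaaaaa
The element, which reads alike on both strands, was present in 5.45% of all promoters, in 34.6% of those of the phosphate list (9 of 26), in 7.42% of those of fallen genes and in 4.44% of those of risen genes.

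**Figure D5:**
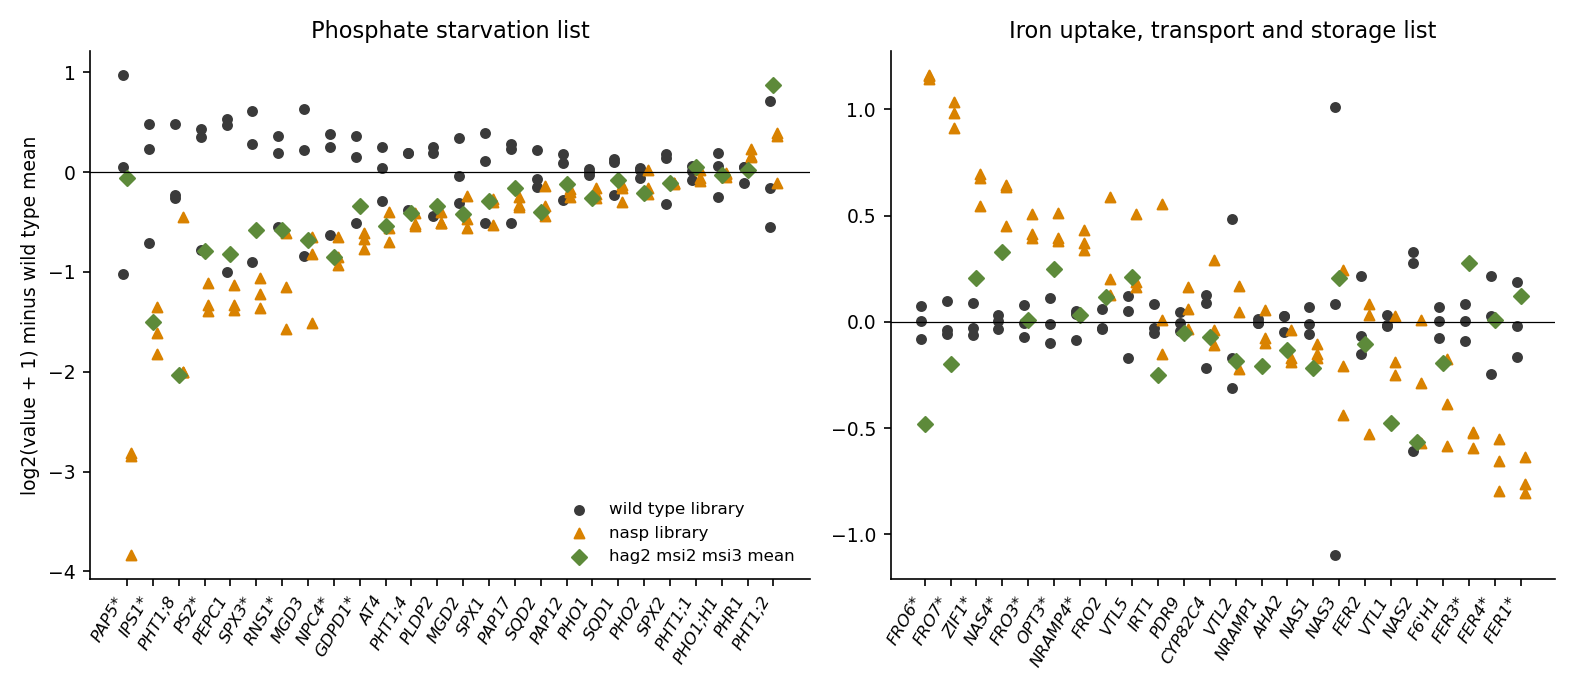
Log2(value + 1) minus the wild-type mean (vertical axis) for the tested genes of the phosphate starvation and iron uptake, transport and storage lists, with each wild-type and nasp library as a point, the hag2 msi2 msi3 mean as a diamond and called genes starred. For PS2, wild type replicate 1 (value 683) lies well below the other wild-type libraries (1497 and 1587), while FRO6 shows tight groups (values of 1868 to 2084 against 4360 to 4427).

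Stress response genes changed in both directions. CAT2, the leaf peroxisomal catalase, rose from values of 5809, 6069 and 5666 to 8284, 9492 and 8939 (0.60 ± 0.07), while APX1, the cytosolic ascorbate peroxidase, fell from 12356, 11652 and 10953 to 7130, 7549 and 8262 (-0.61 ± 0.08). The groups overlapped in neither. Of 17 cold response genes 2 rose. CBF2, a master factor of cold acclimation, had 23.2, 24.5 and 21.8 in the wild type and 101, 88.7 and 94.6 in nasp, a change of 1.99 ± 0.26 (adjusted p = 0.000136). ZAT10, a zinc finger repressor, had 83.6, 83.4 and 104 in the wild type and 216, 202 and 243 in nasp, a change of 1.28 ± 0.16. The list's median was -0.10, and none of its genes fell here, but 4 fell without wild type replicate 3, 2 without nasp replicate 3, 2 with the replicate number as a block and 3 with voom weights. Of 16 tested touch and wound genes 4 rose. CAF1A, a deadenylase subunit, had 134, 157 and 200 in the wild type and 506, 561 and 676 in nasp, a change of 1.83 ± 0.20. ERF104, an ethylene response factor, had 194, 196 and 209 in the wild type and 413, 406 and 460 in nasp, a change of 1.09 ± 0.18. Neither gene overlapped between the groups. TCH2, a calmodulin-like protein, rose by 0.74 ± 0.12 and ERF6 by 0.84 ± 0.21. The calls of CAF1A and ERF104 held in every alternative. The count was 3 without nasp replicate 2 or 3 or wild type replicate 1 or 2. Of 18 heat shock genes 2 fell (median -0.23), HSP101 by 0.36 ± 0.09 and HSP70, a cytosolic chaperone, which had 764, 768 and 692 in the wild type and 569, 481 and 490 in nasp (-0.53 ± 0.10). HSP101's call ended without 5 of the 6 libraries. Of 14 HSP90 and HSP60 chaperone genes, a family chosen after its values were seen, 3 fell, among them HSP60 (-0.40 ± 0.06) and HSP81-3 (-0.37 ± 0.07).

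Of 13 cuticle and wax genes 3 rose, of 18 secondary wall genes 2 rose, and of 21 expansin, wall loosening and aquaporin genes 3 rose and 1 fell. The last list had no rise without nasp replicate 1, nasp replicate 2 or wild type replicate 2 and 1 rise without wild type replicate 1 or 3, and the cuticle list had 1 rise in the fit of the 6 libraries alone. CER3, which takes part in wax alkane synthesis, rose by 0.39 ± 0.07 (1174, 1310 and 1209 in the wild type and 1558, 1562 and 1719 in nasp). Its partner CER1 had 2317, 2063 and 1689 in the wild type and 3579, 4178 and 6602 in nasp, and its nasp mean was 237% of that of the wild type. Its nasp replicate 3 lay far above the other nasp libraries, and its call ended in the fit of the 6 libraries alone. EXPA3, an expansin, fell from 2630, 2299 and 2260 to 1726, 1645 and 1636 (-0.52 ± 0.09). XTH6, a wall-modifying hydrolase, rose from 788, 975 and 826 to 1648, 1643 and 1945 (1.02 ± 0.11). PAL2, the entry enzyme of phenylpropanoids, rose by 0.36 ± 0.06.

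Immune, hormone and organ marker genes gave few calls or none. Lists of this size with no call or 1 call cannot be told apart from the share over all genes tested (3.89%). Of 30 salicylic acid and immune genes 1 rose, which is 3.33% against the background of 3.89%. It was ICS1, the salicylic acid synthesis gene, which had 220, 244 and 262 in the wild type and 360, 345 and 343 in nasp (0.53 ± 0.08, adjusted p = 0.000404). The defence marker PR1 had 9.09, 35.7 and 9.88 in the wild type and 17.3, 15.7 and 23.8 in nasp, and the groups overlapped. None of 22 tested jasmonate, 20 abscisic acid, 20 gibberellin and brassinosteroid, 20 glucosinolate, 14 sulfur or 22 ribosomal genes passed in limma. At an unadjusted p below 0.05 the counts were 6, 1, 3, 3, 1 and 2 in that order. Without wild type replicate 1, 2 jasmonate genes and 1 gibberellin and brassinosteroid gene fell. Without nasp replicate 3, 1 glucosinolate gene and 1 gibberellin and brassinosteroid gene fell. In the fit of the 6 libraries alone 1 jasmonate gene rose. With voom weights 2 glucosinolate genes and 1 gibberellin and brassinosteroid gene passed, lower in nasp. None of 19 root, 19 shoot epidermis and meristem or 15 anther, pollen and seed markers passed either, with 2, 5 and 0 at an unadjusted p below 0.05 and none with voom weights. The anther, pollen and seed markers varied widely between replicates, so only large changes could pass there. Their median SD of the log2 values was 0.80 in the wild type and 0.81 in nasp, against 0.11 over all genes tested. In other fits 1 root marker rose without wild type replicate 1, and 1 shoot marker rose in the fit of the 6 libraries alone. The root markers summed to 14570 to 15380 in the wild type and 15680 to 16770 in nasp. The shoot markers summed to 7715 to 7802 and 8279 to 8467, and the anther, pollen and seed markers to 347.6 to 525.5 and 307.8 to 548.1. The sums were thus higher in all nasp libraries for root and shoot markers and overlapped for the last list. The part of organ makeup in the other results was not tested.

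In 14 lists genes were called but none of the calls held in every alternative. They include starch breakdown, where GWD1 (-0.42 ± 0.11), PWD (-0.35 ± 0.08) and PHS2 (-0.42 ± 0.10) fell. In the sugar starvation list 4 of 15 rose and 1 fell, led by ASN1, asparagine synthetase (1.03 ± 0.17). In the unfolded protein response list BIP1 (-0.29 ± 0.07), BIP2 (-0.30 ± 0.07) and CNX1 (-0.29 ± 0.07) fell. None of the starch calls remained without nasp replicate 1 or 2 or wild type replicate 1 or 2. None of the unfolded protein response calls remained without nasp replicate 2 or wild type replicate 1 or 3. The sugar starvation rises numbered 1 or 2 without any 1 of the 6 libraries.

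Genes outside the lists also changed. AT1G07450 had values of 12.1, 21.3 and 27.8 in the wild type and 94.4, 115 and 90.6 in nasp, a change of 2.31 ± 0.25 (adjusted p = 2.61e-05). LBD26, a LOB domain gene, had 46.3, 35.5 and 55.5 in the wild type and 194, 192 and 145 in nasp (1.94 ± 0.20). MEE29, an RNA helicase gene, had 184, 177 and 185 in the wild type and 67, 65.8 and 87.2 in nasp, a change of -1.31 ± 0.17. AT3G17160 had 390, 347 and 415 in the wild type and 864, 936 and 820 in nasp, a change of 1.18 ± 0.10. None of the 4 overlapped between the groups, but lack of overlap was a condition for naming genes by size of change. Loci listed at 0 in all libraries of one group were AT2G01422 (wild type 104, 9.71 and 144, nasp listed at 0) and AT2G04885 (wild type listed at 0, nasp 35.4, 9.58 and 18.8), for which no fold is given. The call of the former ended with voom weights (adjusted p = 0.0558), and the latter was not tested under the filter on a mean of at least 10. Of 24300 pairs of adjacent tested genes, 59 (0.243%) had both genes called. Of the 59, 46 changed in the same direction, among them FRO6 with FRO7 and LHCB2.1 with LHCB2.2, and 13 in opposite directions. LHCB2.1 and LHCB2.2 are similar copies, which may share reads. Neither count was tested against chance, and 64.3% of the called genes rose, so many pairs would agree in direction anyway.

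The second comparison set nasp against hag2 msi2 msi3, which lacks other subunits and keeps NASP. Here 2597 of 24305 genes differed (10.7%). The count was 1583 without nasp replicate 2, 1609 without hag2 msi2 msi3 replicate 2 and 1728 without hag2 msi2 msi3 replicate 1. Of 8 H4 genes 1 was higher in nasp and none lower, and of 12 H3 genes 1 was higher and 2 lower. Of 13 H2A genes 1 was higher and 6 lower, and of 10 H2B genes none was higher and 1 lower. The linker histone gene HIS1-3 was at 733 ± 88.5 in hag2 msi2 msi3 against 2386 ± 133 in nasp (log2 difference 1.71 ± 0.10, adjusted p = 3.29e-09). The clock genes differed in most members: 12 of 14 morning genes were higher and 1 lower in nasp, and of the evening genes 2 were higher and 7 lower. CCA1 was at 43.1 ± 5.34 in hag2 msi2 msi3 and at 1028 ± 97 in nasp (log2 difference 4.55 ± 0.19, adjusted p = 1.33e-10). Of the antenna genes 13 were higher and 1 lower, and LHCB2.3 was at 2177 ± 259 in hag2 msi2 msi3 and 12805 ± 982 in nasp (log2 difference 2.56 ± 0.16). For CCA1 and LHCB2.3 the hag2 msi2 msi3 mean lay below every wild-type library, so these differences exceed the changes against the wild type. Of 22 ribosomal genes 14 were lower in nasp than in hag2 msi2 msi3, though none passed against the wild type. AT3G01345, among the genes that fell most against the wild type, was at 1535 ± 660 in hag2 msi2 msi3, 428 ± 264 in the wild type and 7.23 ± 1.1 in nasp.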

How the data were processed

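RNA of 12-day-old seedlings was sequenced from one end on a DNBSEQ instrument, per the labels' protocols. Per the submitters' processing notes, bcl2fastq, HISAT2, edgeR and the TAIR10 build were used, without versions; the counter, the annotation, the handling of multiply matching reads and the use of strand are not stated. The authors deposited a table of signal, that is normalized gene-level read values, for 32548 genes; of the values under 4, 89.9% lie within 0.1 of a whole number, and read counts were not recovered. The test planned for values that are not counts was therefore used.

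Testing was limited to the 24305 genes that reached a value of 1 in 3 or more of the 15 libraries of 12 days. The log2(value + 1) of all 15 libraries was fitted in limma 3.58.1 (R 4.3.3; lmFit and eBayes with a trend) with genotype as the only term. Calls have a Benjamini-Hochberg adjusted p below 0.05. The procedure was tested on simulated data. Gene names, positions and promoters come from RefSeq TAIR10.1; without strand, values of noncoding and antisense RNAs are less certain. Members and lists were chosen with earlier results of these data known. Named are NASP and its neighbours and up to 4 called members per list by adjusted p. In each direction, the 10 genes that changed most or had the lowest adjusted p could be named too. Those taken by size of change were limited to genes whose groups did not overlap and whose higher mean reached a minimum. Further list members, genes of the families and those outside the lists were named after their values were seen. The share of all tested genes without overlap is not given. The 20-day libraries were not used here.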

Additional observations from a re-analysis of the deposited data

How the results depend on the processing

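Against 945 called genes (608 rose, 337 fell), the fit with no trend gave 580 (397 and 183), the fit of the 6 libraries alone 535, of which 128 fell, and voom weights gave 593 that fell. Leaving out 1 library gave 519 to 718 calls, 351 to 480 rises and 168 to 268 falls, and 1583 to 2125 genes for nasp against hag2 msi2 msi3, of 2597. The cause was not tested, except that fewer libraries enter the fits without a library. The other alternatives (a mean of at least 10, median-ratio scaling, no filter, pseudocounts of 0.5 and 5, quantile normalization) gave 888 to 987 calls. Most of the called genes named, 107 in number, were followed singly through the 16 alternatives. Of these 107, 72 held in all 16, the calls of 35 ended in at least 1 and none reversed.

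The replicate number was tried as a block and gave 989 calls. Same-numbered wild-type and nasp libraries did not deviate together (correlations of -0.0557, -0.0198 and -0.0415), and 5 of 15 libraries correlated best with their own number. No pairing by number was thus seen in these normalized values. They cannot show whether same-numbered samples were grown or harvested together. The number of reads behind each value is unknown, so the depth limit on low genes could not be set; genes with means under 10 passed only at changes of 0.94 or more.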

Other observations

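Families outside the described processes, all chosen after their values were seen, gave these counts, against 3.89% of all genes tested. AP2/ERF factors had 8 risen of 88 and none fallen; none of these calls held in every alternative, and the rises numbered 1 without nasp replicate 2 or wild type replicate 1, 2 without wild type replicate 2, 4 without nasp replicate 3 and 5 without wild type replicate 3. Cytochrome P450 genes had 10 risen and 7 fallen of 220, with 6 rises without nasp replicate 3 and 4 falls without nasp replicate 2 or wild type replicate 3. Cytosolic and plastid ribosomal protein genes had 1 risen of 331.

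In the deposited table the number of genes listed at 0 was 7997 in each of the 3 nasp libraries, and 7905, 7905 and 9146 in the wild-type libraries. How the processing before deposit made these counts equal is not given in the sources used here.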
